A study of Arabidopsis thaliana with 6 samples.

Results

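COR15A, COR15B, LTI30, COR47, HIS1-3 and DI19 are 6 Arabidopsis genes known for their response to cold or to loss of water, and their transcripts were compared between p53-transgenic and wild type (WT) seedlings. The 6 genes were chosen with their difference between the genotypes already known, so that difference is given here as a description with its error and without a test. A probe set is the set of short oligonucleotides with which the array reads 1 transcript. Each of the 6 genes had 1 probe set that names it alone, which makes 6 of the 13513 probe sets that name 1 gene and 6 of 22746 probe sets in all.

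The seedlings were 10 days old, of the ecotype Col-0, and either WT or 35S:P53, which express human p53 from the 35S promoter of cauliflower mosaic virus, a promoter active in most cells of the plant. Each genotype had 3 GeneChip Arabidopsis ATH1 arrays, whose RNA came from separate biological experiments with replicate numbers from 1 to 3. The labels name no cold or drought treatment, no empty-vector plants and no particular transgenic line, and the human transgene itself was not analysed here. The deposited values are logs, taken as log2, with each probe set centred on its median over the 6 arrays, so they compare arrays and give no expression level, and values of different genes cannot be set against each other as levels.

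In Arabidopsis, cold and drought switch on overlapping sets of genes, in part through CBF/DREB transcription factors and in part through abscisic acid, the hormone of water shortage. Many of the induced proteins belong to the late embryogenesis abundant (LEA) class, which stay soluble and are thought to protect membranes and enzymes while the cell loses free water. COR15A and COR15B are LEA-type proteins of the chloroplast stroma that stabilize membranes during freezing. LTI30 (also XERO2) and COR47 (also RD17) are dehydrins, a branch of the LEA class. HIS1-3 is a linker histone variant induced by drought and abscisic acid, and DI19 (drought-induced 19) is a zinc finger protein.

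All 6 genes had lower values in the p53-transgenic seedlings, in each of the 3 p53 arrays against each of the 3 WT arrays. The differences ran from 16.0-fold lower for COR15A to 1.65-fold lower for DI19. Across all probe sets 19.4% had every p53 array below every WT array, and 8.84% were lower at an adjusted p under 0.05 (limma, adjusted by the Benjamini-Hochberg method over 22746 probe sets). The 6 genes were picked on this contrast, so nothing is read from all 6 meeting both conditions. With the cut-offs of the study's legend, a p under 0.05 and a fold change over 2, applied here to the unadjusted p of limma in place of the t-test, 2.73% of probe sets and 5 of the 6 genes were lower, DI19 being under the fold limit. In whole seedlings, fewer cells that carry a transcript and less of it in each cell cannot be told apart.

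COR15A (AT2G42540) had log2 values of 1.82, 1.76 and 1.81 in WT replicates 1, 2 and 3 and of -1.76, -2.08 and -2.79 in p53 replicates 1, 2 and 3. The 3 WT arrays lay almost on one value, and the p53 arrays were spread out far beneath them. The log2 fold change was -4.00 with a standard error of 0.24 and a 95% confidence interval from -4.58 to -3.43, and it ranked 5 from the lowest over all probe sets.

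COR15B (AT2G42530), the paralog of COR15A, had values of 1.005, 0.993 and 0.993 in WT and of -0.99, -1.87 and -2.46 in p53-transgenic seedlings. Its WT arrays differed by 0.0117 at most, whereas p53 replicate 1 stood well above the other two p53 arrays. The log2 fold change was -2.77 (95% confidence interval -3.56 to -1.98), a 6.82-fold lower mean. Whether transcript of one COR15 gene also binds the probes of the other was not tested.

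LTI30 (AT3G50970), a dehydrin, had values of 1.23, 1.27 and 1.26 in WT and of -1.38, -1.23 and -1.82 in p53-transgenic seedlings. The WT arrays again lay close together, and p53 replicate 3 was the lowest. The log2 fold change was -2.73 with a standard error of 0.15, and the gap from the lowest WT array to the highest p53 array was 2.46 log2 units.

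COR47 (AT1G20440), the other dehydrin, had values of 0.72, 0.76 and 0.76 in WT and of -0.72, -0.95 and -1.10 in p53-transgenic seedlings. Its difference was the smaller of those of the dehydrins. The mean was 3.19-fold lower, and the log2 fold change was -1.67, with an interval from -1.94 to -1.41.

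HIS1-3 (AT2G18050), the linker histone, had values of 1.36, 1.23 and 1.47 in WT and of -1.80, -2.13 and -1.23 in p53-transgenic seedlings. Here p53 replicate 3, the lowest array for the COR15 genes and both dehydrins, was the highest of the p53 arrays. The log2 fold change was -3.07 (95% confidence interval -3.59 to -2.56), which is second in size to that of COR15A.

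DI19 (AT1G56280) had values of 0.35, 0.26 and 0.42 in WT and of -0.50, -0.26 and -0.38 in p53-transgenic seedlings. The genotypes did not overlap, but the gap between them was 0.53 log2 units, the narrowest among the 6 genes. The log2 fold change was -0.72 with a standard error of 0.095, and it ranked 1131 from the lowest over all probe sets.

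**Figure D1:**
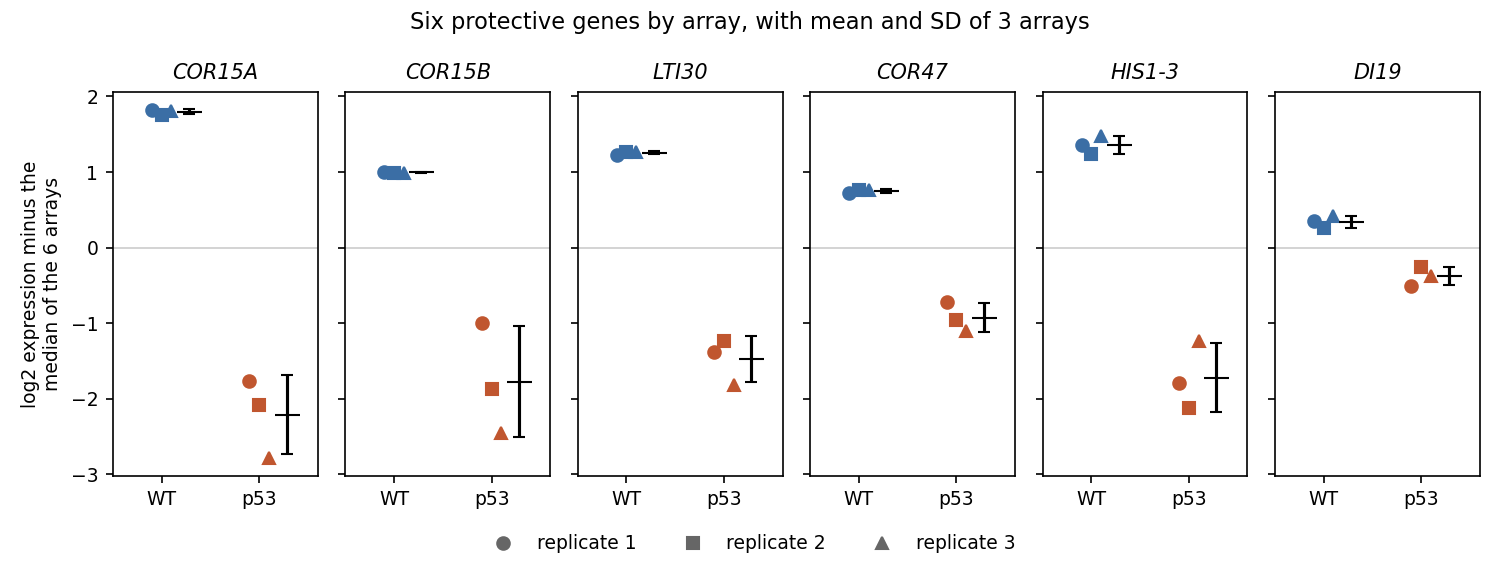
Deposited log2 values of the 6 genes (vertical axis, log2 expression minus the median of the 6 arrays) on each WT and p53 array, with the replicates as circles, squares and triangles and the mean and SD of 3 arrays beside them. The WT arrays of COR15B lie between 0.993 and 1.005, while its p53 arrays run from -2.46 to -0.99.

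In the order of their fold changes COR15A came first, then HIS1-3, COR15B, LTI30, COR47 and DI19. The confidence intervals of COR15A and HIS1-3 overlapped only at their ends, and COR15A had the greater difference in all 3 pairs of same-numbered arrays. Those of HIS1-3, COR15B and LTI30 overlapped more widely, and the differences between genes were not tested. The interval of COR47 lay apart from that of LTI30 and, narrowly, from that of COR15B, and the interval of DI19 lay apart from that of COR47. Each interval takes 1 variance for both genotypes, although the SD of COR15B was 0.00675 in WT and 0.737 in p53. Nothing is therefore read from the narrow separation of COR47 and COR15B. The sizes depend on the scaling, because after quantile normalization of the arrays COR15A, HIS1-3, COR15B and LTI30 had log2 fold changes of -5.09, -3.94, -3.45 and -3.34, in the same order. The lowest WT array and the highest p53 array of each gene are equally far from 0 because the subtracted median falls midway between them, which leaves every difference between arrays as it was.

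Arrays of the same replicate number were also compared, p53 minus WT. Each gene was lower in 3 of 3 pairs, as any pairing must give where every p53 array lies below every WT array. Nothing is read from that count. COR15A differed by -3.58, -3.84 and -4.60 log2 units in pairs 1, 2 and 3, and COR15B by -1.997, -2.86 and -3.45. For both genes pair 3 had the greatest difference and pair 1 the smallest. HIS1-3 differed by -3.16, -3.36 and -2.71, so that its smallest difference was in pair 3. For LTI30, COR47 and DI19 the differences lay between -3.08 and -2.50, between -1.86 and -1.44 and between -0.85 and -0.53.

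To see whether the genes varied together within a genotype, each array was set against the mean of its genotype. With 3 arrays per genotype such a relation cannot be tested, and the values are a description. Among the p53 arrays, replicates 1, 2 and 3 of COR15A deviated by 0.45, 0.13 and -0.58 log2 units and those of COR15B by 0.78, -0.09 and -0.69. COR47 had the same order with smaller steps, at 0.20, -0.03 and -0.18. In these 3 genes p53 replicate 1 was the highest and replicate 3 the lowest, an order that 11.3% of all probe sets had, and 13.6% of those lower at an adjusted p under 0.05.

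LTI30 deviated by 0.10, 0.25 and -0.35 in p53 replicates 1, 2 and 3, so it shared the low replicate 3 and not the high replicate 1. HIS1-3 ran the other way from the COR15 genes, with deviations of -0.08, -0.41 and 0.49, and DI19 had replicate 2 highest and replicate 1 lowest. In the deposited values COR15A, COR15B, LTI30 and COR47 were lowest in the same p53 array, and HIS1-3 and DI19 were not. Replicate 3 was the lowest p53 array in 4 of the 6 genes, against 36.2% of all probe sets, 49.6% of those called lower and 54.7% of the 960 called lower by at least as much as DI19. The count rests in part on scaling, because after quantile normalization of the 6 arrays it was 3 of 6, with COR47 lowest in replicate 2. No grouping by kind of protein is read from it.

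Among the WT arrays there was little to share. The deviations of COR15A, COR15B, LTI30 and COR47 all lay between -0.04 and 0.02 log2 units. HIS1-3 and DI19 moved more, and both had WT replicate 3 highest and replicate 2 lowest, by 0.12 and -0.12 for HIS1-3 and by 0.07 and -0.08 for DI19. That WT order was held by 17.2% of all probe sets and 24.5% of those called lower, so nothing is read from it. These 2 genes did not share an order among the p53 arrays. HIS1-3 had the same array order in both genotypes, and for COR15B the WT arrays lay too close together for an order to be read.

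**Figure D2:**
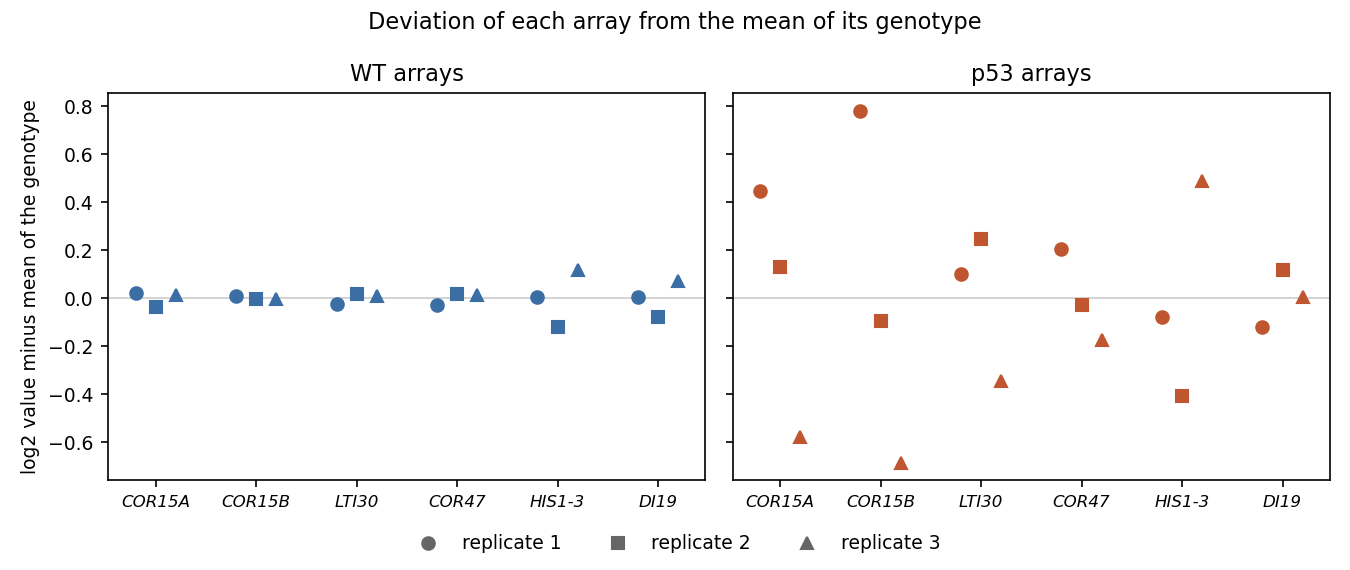
Deviation of each array from the mean of its genotype (vertical axis, log2 units) for the 6 genes in WT (left) and p53 (right), with circles, squares and triangles for replicates 1, 2 and 3. In p53 the triangles are lowest for COR15A, COR15B, LTI30 and COR47 and highest for HIS1-3 at 0.49.

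The spread between arrays of one genotype differed widely for these genes. The SD of COR15B was 0.00675 in WT and 0.737 in p53-transgenic seedlings, and that of COR15A was 0.0316 and 0.526. LTI30 and COR47 had SDs of 0.0201 and 0.0241 in WT and of 0.308 and 0.192 in p53. The p53 arrays were the more variable ones in 6 of 6 genes, HIS1-3 (0.120 and 0.453) and DI19 (0.0767 and 0.120) included.

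Over all probe sets the p53 arrays had the larger SD in 65.3%, and in 67.8% of the 960 probe sets that were called lower by at least as much as DI19. The median SD of the 6 genes was 0.0279 in WT and 0.380 in p53-transgenic seedlings. Over the 960 it was 0.155 and 0.247. COR15B was among the quietest transcripts of the WT arrays, with 0.361% of probe sets having a smaller SD there, and among the most variable of the p53 arrays, where 98.2% had a smaller one. DI19 was in neither extreme, at 32.1% and 39.4%. A small SD can help a gene to pass a test between the genotypes. These genes were picked on that contrast, so nothing is read from the quiet WT arrays. The median WT SD was 0.106 over all probe sets and 0.113 over those called lower. The part of the selection in the spread of the 6 genes was not tested.

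The p53 arrays as a whole also lay less close to each other. Array weights, estimated by limma from the scatter of all probe sets, were 3.04, 0.557 and 0.340 for p53 replicates 1, 2 and 3 and lay between 0.963 and 1.35 for WT. A low weight marks an array that lies farther from its group. The part of p53 replicates 2 and 3 in the spread of the 6 genes was not tested.

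**Figure D3:**
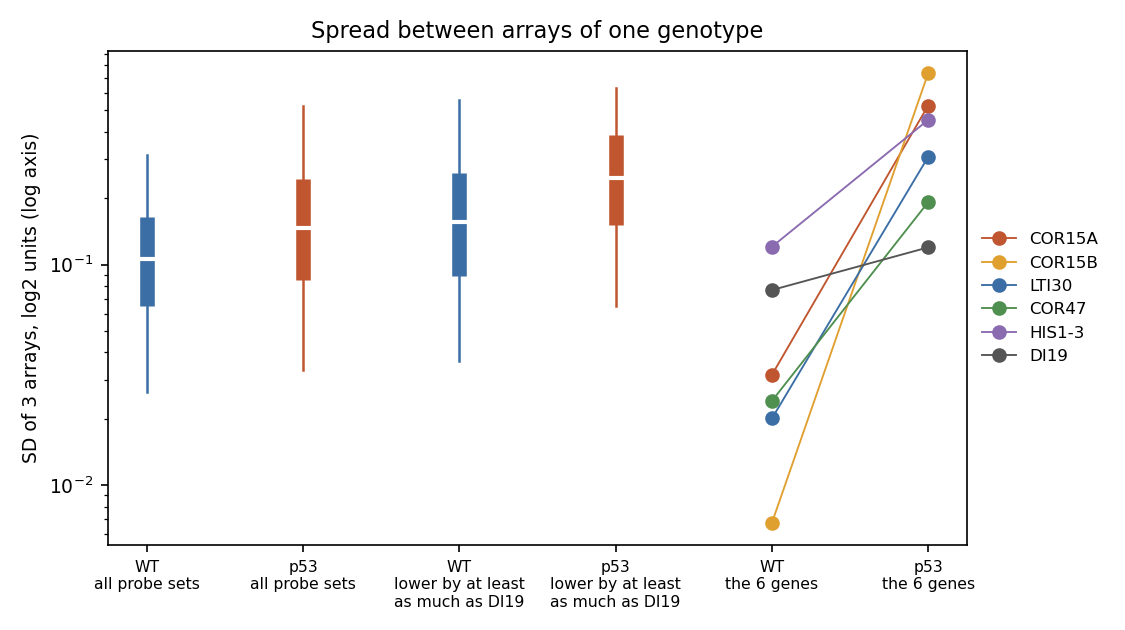
SD of the 3 arrays of a genotype (vertical axis, log2 units, log axis) over all probe sets, over the 960 called lower by at least as much as DI19, and for each of the 6 genes, joined from WT to p53. Thick bars span the 25th to 75th percentiles, thin bars the 5th to 95th, and white marks the median, and the 6 lines all climb from a median of 0.0279 to one of 0.380.

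The few measured genes of a list of cold-response genes were lower too. SRC2, from a later search of names for drought, cold and dehydration, was at -0.06 (adjusted p = 0.946) and did not pass. The clock gene GI, which has a part in cold tolerance, was at -0.26 (adjusted p = 0.271) and did not pass either. Of 33 genes on a list of cold-response genes, 3 had a probe set that names them alone, and all 3 fell in p53-transgenic seedlings, where 8.84% of all probe sets were lower. Their median log2 fold change was -1.63, beside -0.01 over all probe sets. The list was chosen with earlier results of these data known, so nothing is read from its count or median. STZ (also ZAT10), a zinc finger repressor induced by cold, salt and drought, had values of 0.92, 0.71 and 1.61 in WT and of -2.25, -1.62 and -0.71 in p53. On the log2 scale it fell by 2.61, with an adjusted p of 0.0076, and its p53 replicate 3 was the highest, as for HIS1-3. Replicate 3 was the highest p53 array in 43.2% of all probe sets and 28.1% of those called lower.

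COR27, a cold-induced gene that also takes part in the circadian clock and light signalling, had values of 0.72, 0.74 and 0.59 in WT and of -0.63, -0.59 and -1.60 in p53. It fell by 1.63 (adjusted p = 0.00901) with the lowest value in p53 replicate 3, where COR15A, COR15B, LTI30 and COR47 were lowest too. AT4G33980, given by its locus only in the tables used here, fell by 1.02 (adjusted p = 0.00552) and had the p53 array order of COR27 and LTI30. The 3 genes passed in 12 of 13 alternatives and not in the t-test named in the study, run on the same values with Benjamini-Hochberg adjustment, where their adjusted p lay between 0.0543 and 0.0801.

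Of 21 further dehydrins and LEA genes on a list, 10 were measured, of which 1 fell, 0 rose and 9 did not pass, with a median log2 fold change of -0.07. The 1 of 10 is near the 8.84% of all probe sets that were lower, so nothing is read from the count. The gene that fell was the small dehydrin HIRD11 (AT1G54410), with values of 0.18, 0.17 and 0.21 in WT and of -0.32, -0.17 and -0.46 in p53. Its difference of -0.50 (adjusted p = 0.0164) was smaller than those of LTI30 and COR47. Without WT replicate 1, 2 or 3 or p53 replicate 1 the adjusted p of HIRD11 rose to between 0.0519 and 0.0730.

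The 9 that did not pass had log2 fold changes between -0.25 and 0.07. They include LEA4-5 at -0.25 (adjusted p = 0.260), which passed without p53 replicate 3 (-0.37, adjusted p = 0.0471), and AT2G44060 (LEA26) at -0.15 (adjusted p = 0.393). AT4G38410 was at -0.14 (adjusted p = 0.480). Several LEA proteins of this list are known chiefly from dry seeds, and without levels it is not known whether their transcripts were detected in these seedlings.

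Of the measured relatives of HIS1-3 and DI19, none was called lower in the fit. The 2 other linker histones listed, AT1G06760 and AT2G30620, had log2 fold changes of -0.29 (adjusted p = 0.0861) and -0.23 (adjusted p = 0.132), far from the -3.07 of HIS1-3. Of 6 loci listed as relatives of DI19, 4 were measured, of which 1 was higher and 0 lower. The one that rose, AT3G06760, had values of -0.29, -0.54 and -0.25 in WT and of 0.38, 0.25 and 0.51 in p53, opposite to DI19 and of like size, with a log2 fold change of 0.74 (adjusted p = 0.00746). AT5G26990 was at 0.37 (adjusted p = 0.0807), passing without p53 replicate 2 (0.47, adjusted p = 0.0267). AT4G02200 was at -0.49 (adjusted p = 0.207, and 0.0217 in the paired fit), and AT1G02750 at -0.04 (adjusted p = 0.886). For comparison, 8.84% of all probe sets were lower and 6.55% higher at an adjusted p under 0.05, so nothing is read from these counts.

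A search of the reference names for drought, cold and dehydration, made after the annotation was seen, added 4 measured genes. DI21 (drought-induced 21) fell, with values of 0.56, 0.16 and 0.85 in WT and of -0.35, -0.40 and -0.16 in p53 and a log2 fold change of -0.83 (adjusted p = 0.0242). Leaving out WT replicate 1 or 3 or p53 replicate 1 ended its call, with an adjusted p between 0.0683 and 0.0930. DOR (drought tolerance repressor) at -0.11, SRC2 at -0.06 and AT2G46140 (LEA27) at 0.17 did not pass, with adjusted p of 0.574, 0.946 and 0.524.

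**Figure D4:**
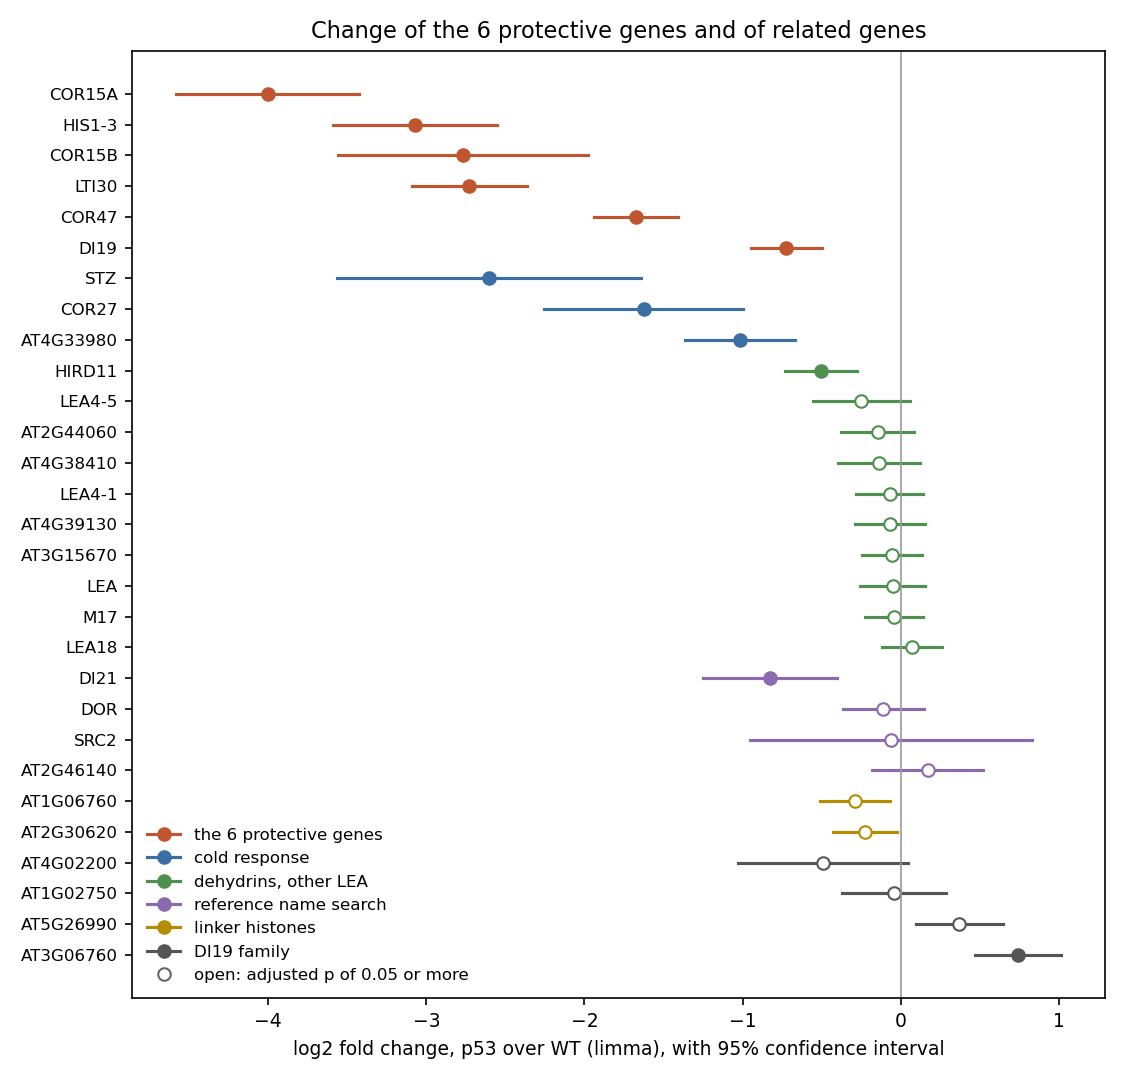
Log2 fold change of p53 over WT (horizontal axis) with its 95% confidence interval for the 6 genes and for related genes, coloured by list; for the 6 genes it is a description. Open circles did not pass an adjusted p of 0.05, and apart from the 6 genes only STZ, COR27 and AT4G33980 lie below -1.

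Genes next to the 6 in the TAIR10.1 reference were looked up as well. COR15A and COR15B lie side by side, COR47 lies beside the dehydrin gene ERD10 and LTI30 beside the dehydrin gene XERO1, but ERD10 and XERO1 have no probe set here that names them alone and were not analysed. Of the genes directly beside one of the 6, other than the 6 themselves, 4 were measured and 0 passed. Over all probe sets 8.84% were lower and 6.55% higher, so nothing is read from that count. AT2G42520, whose span overlaps that of COR15B, was at 0.35 (adjusted p = 0.0532), the opposite direction to COR15B, and passed without p53 replicate 2 (adjusted p = 0.0466) and after centring or quantile normalization of the arrays (adjusted p = 0.0461 and 0.0391). It also passed with trended, robust moderation (adjusted p = 0.0287) and with array weights (adjusted p = 0.0105). AT1G20430, beside COR47, was at -0.03 (adjusted p = 0.882), and AT1G56270 and AT1G56290, on either side of DI19, were at 0.02 (adjusted p = 0.944) and 0.10 (adjusted p = 0.621).

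At the next position outward, 2 of 6 measured neighbours were lower, beside 8.84% of all probe sets, and both by less than COR47 and DI19. AT1G20410, near COR47, was at -0.41 (adjusted p = 0.0286) and AT1G56300, near DI19, at -0.52 (adjusted p = 0.0171). The call of AT1G20410 held without p53 replicate 3 alone and was lost without any other array (adjusted p between 0.0531 and 0.104). That of AT1G56300 ended when WT replicate 1 or 3 or p53 replicate 1 was left out (adjusted p between 0.0673 and 0.0779). The other measured ones did not pass. AT2G42560, near COR15A, was at -0.09 (adjusted p = 0.637) and AT3G50990, near LTI30, at -0.18 (adjusted p = 0.267). Near HIS1-3, MSRA5 was at -0.17 (adjusted p = 0.347) and AT2G18070 at 0.10 (adjusted p = 0.620).

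Likeness between genes was measured as the root mean square difference of their values over the 6 arrays, so that both the size of the change and the array order count. Among the 6 genes COR15B and LTI30 were the closest pair at 0.439 log2 units, closer than the paralogs COR15A and COR15B at 0.666. COR15B and LTI30 had like log2 fold changes (-2.77 and -2.73) but different orders of the p53 arrays. COR15A and DI19 were the farthest apart at 1.68. Among 13507 other probe sets that name 1 gene, the nearest to COR15A were those of AT1G51090 (0.229) and of the sugar transporter SWEET13 (0.548), with log2 fold changes of -3.73 and -4.05. COR15B was nearest to LCR69 (0.4003), a small cysteine-rich protein of the plant defensin type, and to AT1G04770 (0.482), which was also the nearest gene to LTI30 (0.238).

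LTI30 was next nearest to AT2G23910 (0.241), and the nearest to COR47 were AT1G16850 and AT2G22080, both at 0.131. Both probe sets of GLC (GLAUCE) were the nearest to HIS1-3, at 0.266 and 0.432, with log2 fold changes of -3.44 and -2.74. GLC shared with HIS1-3 a p53 replicate 2 that was the lowest of the 6 arrays. It was picked for its likeness over these same arrays, so nothing is read from that. DI19 had the closest matches of all, AT5G16450 at 0.0389 and AT3G01740 at 0.0402. Its change was the smallest of the 6 genes and the measure depends on that size, so nothing is read from the closeness.

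Marker genes of tissues and of ageing leaves gave few values to set beside these. The leaf gene LHCB4.2, of the light-harvesting antenna, was at 0.14 on the log2 scale (adjusted p = 0.366) and the root hair expansin EXP7 at -0.02 (adjusted p = 0.947). GI (GIGANTEA), a clock gene with a part in cold tolerance, was at -0.26 (adjusted p = 0.271). Of the 2 measured regulators of leaf senescence WRKY6 rose by 1.39 (adjusted p = 0.00544), while WRKY53 was at -0.90 (adjusted p = 0.232) with p53 values of -1.09, -1.58 and 0.25, and passed without p53 replicate 3 (-1.43, adjusted p = 0.00533). No gene on the lists of seed markers (12 genes), flower markers (8) or abscisic acid and dehydration genes (46) has a probe set that names it alone. The part of tissue make-up or age in the differences of the 6 genes was not tested.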

How the data were processed

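The labels give 3 WT and 3 p53-transgenic arrays from separate biological experiments. They name TRIzol for the RNA, whereas the methods name another kit. Per the submitters' processing notes the authors used PLIER, which combines the signals of a probe set, and the methods name GeneSpring for statistics. The deposited values are taken as log2, with every probe set centred on its median over the 6 arrays. The base of the log and the normalization between arrays are not stated in the sources used here. Depth has no counterpart on arrays, and the number of arrays limits the precision.

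After 64 controls were left out, 22746 probe sets were fitted by genotype alone with lmFit and eBayes of limma 3.58.1 (R 4.3.3), and p-values were adjusted by the Benjamini-Hochberg method. Of these 503 name several genes and 8730 are not named in the array annotation used here. In all 13436 probe sets were matched to TAIR10.1 by gene ID for names and gene order, and positions are not printed because the array's build is not named. Steps were tested on simulated data. With 3 arrays per genotype, the smallest p of an exact permutation test is 0.1.

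The 6 genes and the gene lists were chosen with earlier results of these data known. Named are the 6 genes, their measured neighbours, up to 6 called and 3 uncalled genes of each list, and the 2 genes nearest to each of the 6. The second neighbours, the search of reference names and the array weights were added after values were seen. Sequence features that had been planned were not analysed here. The main fit did not use replicate numbers. They were treated as pairs only in the same-number differences and the replicate block, on the basis of the values and not of a label. Over all probe sets, r between the deviations of WT and p53 arrays with the same number was 0.12, 0.27 and 0.34, each above 0.1. Alternatives were quantile normalization, array medians, another variance moderation, the study's t-test, the replicate block, named probe sets only, the fold change rule, array weights and leaving out each array.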

Additional observations from a re-analysis of the deposited data

How the results depend on the processing

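COR15A, COR15B, LTI30, COR47, HIS1-3 and DI19 were lower in every alternative, which is a description, since they were chosen on this contrast. DI19 alone missed the fold change rule (-0.72). With the replicate number as a block, the paired fit gave no other change to a list than 1 lower gene among the listed relatives of DI19 (AT4G02200, adjusted p = 0.0217). Probe sets called lower (2010) numbered 743 with the study's t-test, 1169 over named probe sets only, 3598 with array weights and 622 by the fold change rule. Those called higher (1490) numbered 668, 764, 2978 and 715. Leaving out 1 array gave 899 to 2385 lower and 722 to 1961 higher, the fewest without WT replicate 3 (899 and 722), p53 replicate 1 (952 and 758) or WT replicate 1 (954 and 793), with 1304 lower without WT replicate 2. Without p53 replicate 2 or 3 the counts were higher than with all arrays (2385 and 1961, 2138 and 1796). The cause was not tested. The 3 cold genes were 0 with the study's t-test. The LEA list had 0 lower with the t-test and with the fold change rule, 2 with array weights and 0 to 2 with an array left out. The listed relatives of DI19 had 1 lower with array weights. Higher ones among them numbered 2 after quantile normalization and 2 with array weights. They numbered 0 with the t-test, 0 by the fold change rule and 1 to 2 with an array left out. Of the linker histones 1 was lower with trended, robust moderation (AT1G06760, adjusted p = 0.0430). WRKY6, AT3G06760, DI21, AT1G20410 and AT1G56300 missed the t-test (adjusted p = 0.0611, 0.0505, 0.117, 0.0701 and 0.0640). Uncalled genes changed sign as follows. EXP7 was at 0.0025 after quantile normalization and between -0.10 and 0.0795 with an array left out, AT1G02750 between -0.19 and 0.0737, SRC2 between -0.36 and 0.31, AT1G20430 between -0.10 and 0.0463 and AT1G56270 between -0.0677 and 0.15. The count of genes lowest in p53 replicate 3 was 3 after quantile normalization. Detection limits could not be set, since centred values hold no signal over background.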
